A study of Arabidopsis thaliana with 15 samples.

Results

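AT3G28510, AT5G38910, AT1G49500 and AR781 (AT2G26530) were followed in Arabidopsis roots as genes whose difference between nitrate-fed and ammonium-fed roots was not the same early and late after supply. They were chosen by a large measured value of 1 quantity, the nitrate minus ammonium difference at 8 h minus that at 1.5 h, so this quantity is given for them as a description and was not tested. Each gene had 1 probe set, and together they are 4 of 13350 genes named by the array annotation. Of the 22746 probe sets, they held places 5, 3, 9 and 10 by the size of that quantity. The rule stated no threshold. The next larger value among named genes was that of the nitrate transporter gene NRT2.5, at −3.67 log2, and the next smaller that of AT4G27654, at 2.50 log2.

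Nitrate is reduced in the root to ammonium, which is joined to glutamate to form glutamine, so both ions feed the same assimilation route. Nitrate also acts as a signal that switches on transcription directly, while ammonium supply acidifies the root surface and changes the balance of cations.

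Columbia-0 plants reached growth stage 5.10 in hydroponics and then spent 26 h without nitrogen. There were 5 groups with 3 samples each: roots harvested before supply, roots at 1.5 h of 1 mM nitrate or 1 mM ammonium, and roots at 8 h of 1 mM nitrate or 1 mM ammonium. All groups shared the wild-type genotype and the starvation, and a sample was a pool of 5 or more plants. A 1-colour array was used for each sample, and values are RMA levels on the log2 scale. The counter-ions were not given in the sources used here, and no starved roots were harvested at the later times. So supply, time since the first harvest and time of day cannot be told apart in any comparison with the roots before supply. In any comparison of 8 h with 1.5 h, time after supply and time of day cannot be told apart either.

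Replicates correlated at r = 0.99355 to 0.99775 over all probe sets, and sample medians lay between 6.76 and 6.83 log2. The number of arrays limits the precision. Of 18 root markers 2 had a named probe set, the root hair expansins EXPA7 and EXPA18, with group means of 9.93 to 10.44 and 10.13 to 10.61 log2. Both were higher with nitrate than with ammonium at 1.5 h, by 0.41 log2 (limma, adjusted p = 0.0314 for EXPA7 and 0.0159 for EXPA18), and EXPA18 was higher in supplied roots than before supply by 0.33 log2 (adjusted p = 0.00997). Over both times EXPA7 was higher with nitrate (0.35 log2, limma, adjusted p = 0.00684). Over both ions EXPA18 was higher at 8 h than at 1.5 h (0.25 log2, limma, adjusted p = 0.0256). Of 15 leaf markers 2 had a named probe set. The light-harvesting gene LHCB4.2 had group means of 4.95 to 5.33 log2 and was lower in supplied roots than before supply (−0.34 log2, limma, adjusted p = 0.02). The group means of RCA, the activase of the carbon-fixing enzyme, were 5.88 to 6.32 log2. Over both ions RCA was lower at 8 h than at 1.5 h (−0.35 log2, limma, adjusted p = 0.00243). The part of these markers in the results for the 4 genes was not tested. These are bulk roots, in which fewer cells of a type and less RNA per cell cannot be told apart.

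The 4 genes moved in 4 different ways. AT3G28510 was higher with nitrate early and higher with ammonium late. AT5G38910 parted between the ions mainly late, with ammonium high and nitrate low. AT1G49500 stood above the level before supply with both ions early, and late it was far higher with nitrate than with ammonium. AR781 was highest at 1.5 h of ammonium. Values of nitrate and ammonium samples did not overlap for 3 of the 4 genes at 1.5 h (2 higher and 1 lower with nitrate), against 29.7% of all probe sets (14.4% higher and 15.3% lower), and for 3 of the 4 at 8 h (1 higher and 2 lower), against 27.7% (14% higher and 13.8% lower). The 8 h and 1.5 h values did not overlap for any of the 4, either with nitrate (29.8% of all probe sets) or with ammonium (31.8%). The choice of genes used these samples, so nothing is read from these counts.

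**Figure D1:**
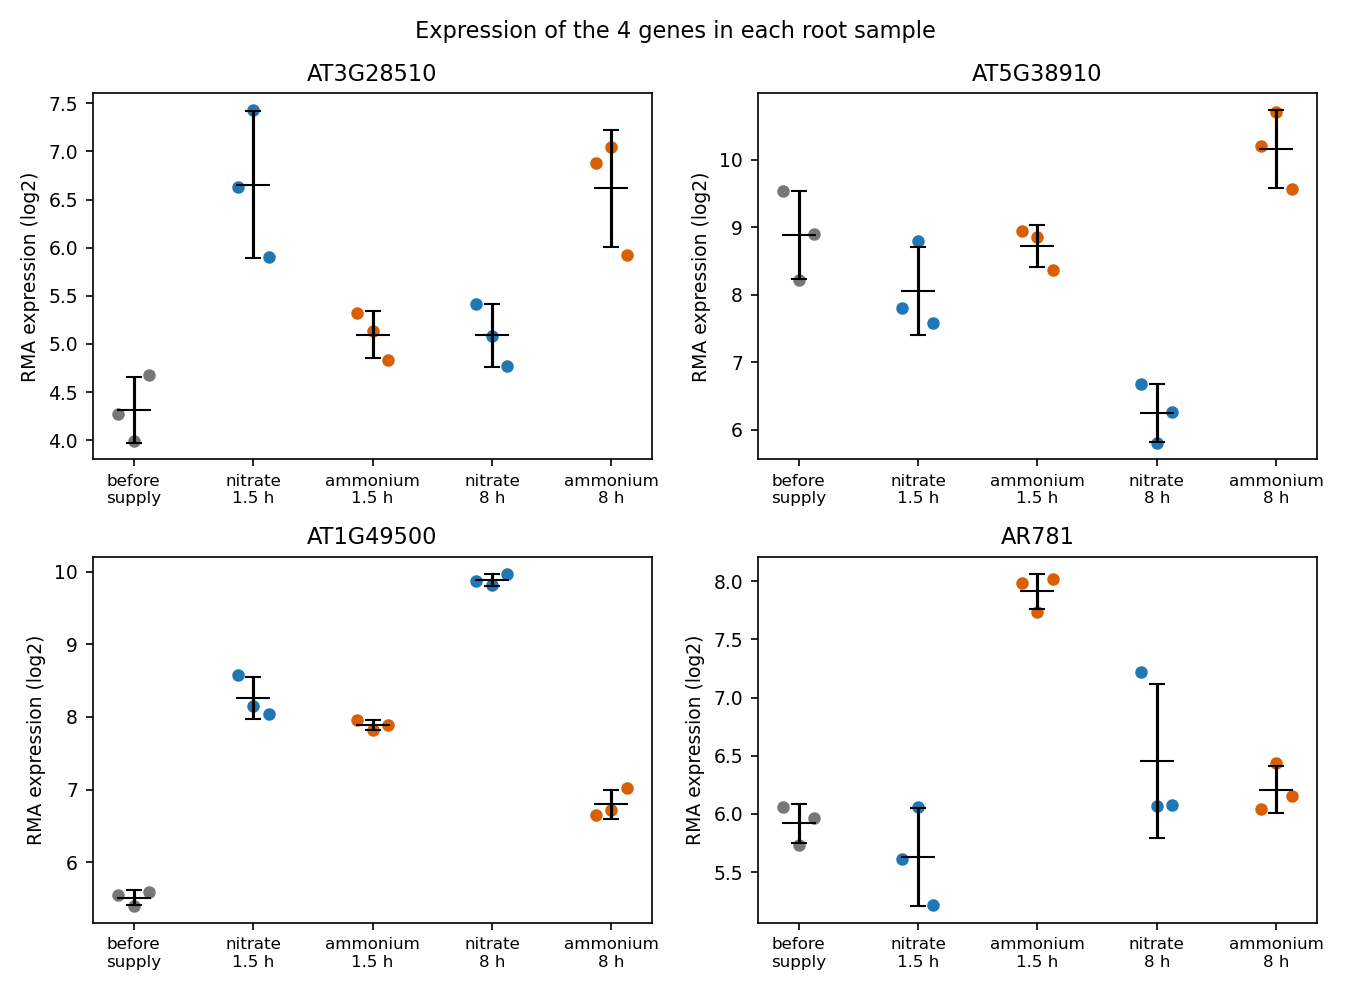
RMA expression (log2, y axis) of the 4 genes in every sample of the 5 groups (x axis). Points are the 3 samples of a group (replicates 1, 2 and 3 from left to right), and bars give the mean and SD. AT3G28510 is high at 1.5 h of nitrate and 8 h of ammonium, AT5G38910 is lowest at 8 h of nitrate, AT1G49500 is highest at 8 h of nitrate, and AR781 is highest at 1.5 h of ammonium.

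AT3G28510 encodes a protein of the AAA-type ATPases, which use ATP to remodel or unfold other proteins; its gene lies on chromosome 3 at 10685470 to 10687429 (TAIR10.1). Its levels were 4.28, 3.99 and 4.67 log2 before supply. At 1.5 h they were 6.64, 7.43 and 5.90 log2 with nitrate and 5.32, 5.14 and 4.83 log2 with ammonium. At 8 h they were 5.42, 5.08 and 4.77 log2 with nitrate and 6.88, 7.05 and 5.92 log2 with ammonium. All 3 nitrate samples lay above all 3 ammonium samples early, and all 3 lay below them late. The nitrate minus ammonium difference was 1.56 ± 0.33 log2 (limma's SE, n = 3 samples per group, as for all differences below) at 1.5 h and −1.53 ± 0.33 log2 at 8 h, a change of −3.09 ± 0.47 log2. Such a full exchange of sides, high to low for nitrate without overlap at either time, was found in 312 of 22746 probe sets (1.37%), and AT3G28510 was the 1 of the 4 genes that showed it.

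In the order of its 5 group means, nitrate at 1.5 h (6.65 ± 0.77 log2, SD, n = 3) and ammonium at 8 h (6.62 ± 0.61) came first and overlapped. Ammonium at 1.5 h (5.10 ± 0.25) and nitrate at 8 h (5.09 ± 0.32) followed and overlapped too, and the roots before supply came last at 4.31 ± 0.34 log2. Of the 3 samples before supply, 2 lay below the lower quartile of their array, so the level there was not shown to be above background and no fold is given against it.

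AT5G38910 encodes a germin-like protein, a member of a family of secreted cupin-fold proteins of the cell wall; its gene lies on chromosome 5 at 15578749 to 15579733. Its levels were 9.53, 8.22 and 8.90 log2 before supply. At 1.5 h they were 7.79, 8.79 and 7.57 log2 with nitrate and 8.95, 8.85 and 8.37 log2 with ammonium. At 8 h they were 6.67, 5.81 and 6.26 log2 with nitrate and 10.20, 10.71 and 9.56 log2 with ammonium. The early groups overlapped each other and the roots before supply, whereas the late groups stood apart on opposite sides of the level before supply. The nitrate minus ammonium difference was −0.67 ± 0.36 log2 at 1.5 h and −3.91 ± 0.36 log2 (15-fold lower with nitrate) at 8 h, a change of −3.24 ± 0.51 log2. Against the roots before supply, nitrate at 8 h was lower by −2.64 ± 0.36 log2 and ammonium at 8 h higher by 1.27 ± 0.36 log2.

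Ammonium at 8 h had the highest mean of this gene, 10.16 ± 0.58 log2 (SD, n = 3). It was followed by the roots before supply (8.88 ± 0.65), ammonium at 1.5 h (8.72 ± 0.31) and nitrate at 1.5 h (8.05 ± 0.65), whose neighbours in this order overlapped. Nitrate at 8 h was last, at 6.25 ± 0.43 log2.

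AT1G49500 encodes a protein of unknown function, on chromosome 1 at 18320490 to 18322505. Its levels were 5.55, 5.39 and 5.59 log2 before supply. At 1.5 h they were 8.58, 8.15 and 8.04 log2 with nitrate and 7.96, 7.81 and 7.89 log2 with ammonium. At 8 h they were 9.87, 9.81 and 9.97 log2 with nitrate and 6.65, 6.72 and 7.03 log2 with ammonium. No 2 groups that were neighbours in level overlapped, and between the early and the late harvest the gene moved up with nitrate and down with ammonium. The nitrate minus ammonium difference was 0.37 ± 0.12 log2 (1.29-fold) at 1.5 h and 3.09 ± 0.12 log2 (8.50-fold) at 8 h, a change of 2.72 ± 0.18 log2. With nitrate the level at 8 h was 1.63 ± 0.12 log2 above that at 1.5 h, and with ammonium it was −1.09 ± 0.12 log2 below it. Against the roots before supply the gene was 20.7-fold higher at 8 h of nitrate and 2.44-fold higher at 8 h of ammonium. Its direction with time turned with the ion, while its direction between the ions did not turn with time.

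AR781 encodes a plant protein with a domain of unknown function, DUF1645; its gene lies on chromosome 2 at 11282663 to 11284272. Its levels were 6.06, 5.73 and 5.97 log2 before supply. At 1.5 h they were 5.61, 6.06 and 5.22 log2 with nitrate and 7.98, 7.74 and 8.02 log2 with ammonium. At 8 h they were 7.22, 6.07 and 6.08 log2 with nitrate and 6.04, 6.43 and 6.15 log2 with ammonium. The ammonium samples at 1.5 h stood above every other sample, and the other 4 groups overlapped their neighbours in the order of means. The nitrate minus ammonium difference was −2.28 ± 0.26 log2 (4.87-fold lower with nitrate) at 1.5 h and 0.24 ± 0.26 log2 at 8 h, a change of 2.53 ± 0.36 log2.

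Nitrate replicate 1 at 8 h stood apart from the other 2 samples of its group for AR781. Without it the late difference was −0.14 ± 0.19 log2 and the change 2.15 log2. So for AR781 the ions were set apart early, and the sign of the late difference rested on 1 sample.

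**Figure D2:**
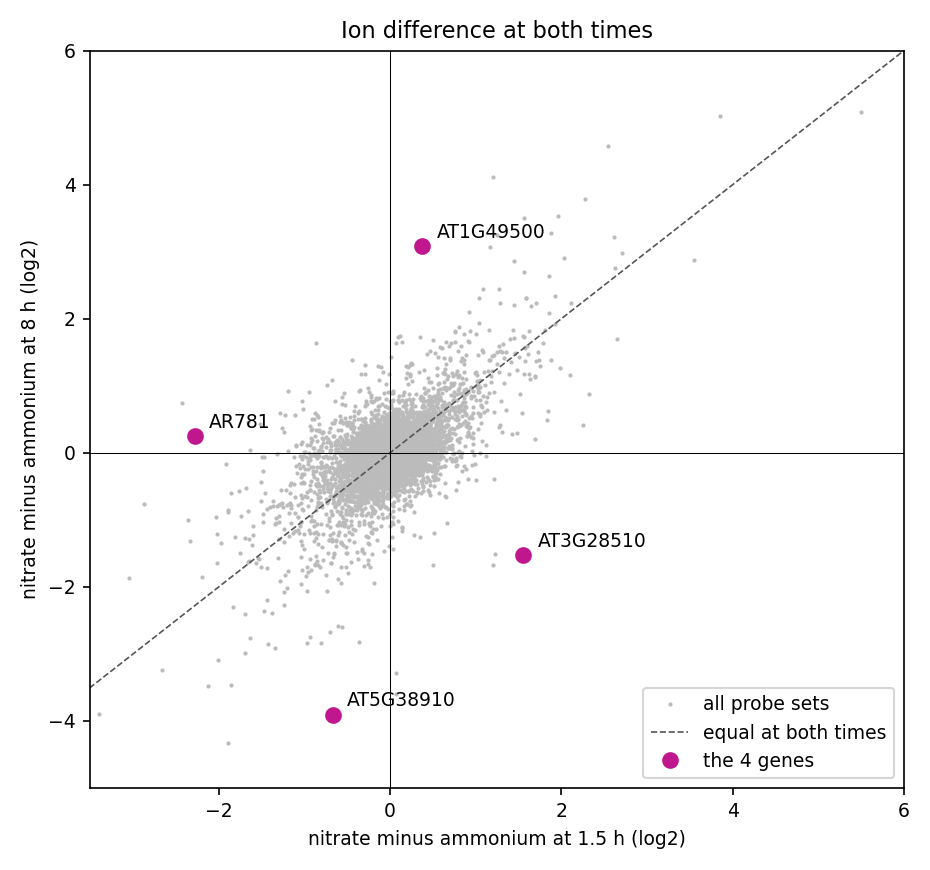
Nitrate minus ammonium difference at 1.5 h (x axis, log2) and at 8 h (y axis, log2) for all 22746 probe sets in grey and the 4 genes in purple, with a dashed line where both are equal. AT3G28510 lies at 1.56 and −1.53, AT5G38910 at −0.67 and −3.91, AT1G49500 at 0.37 and 3.09, and AR781 at −2.28 and 0.24.

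In a layout with equal group sizes, 3 other comparisons have estimates that are uncorrelated with the change that chose the genes, and these were tested. The first sets the mean of the 4 supplied groups against starved roots harvested before supply. The second sets nitrate against ammonium over both times together, and the third 8 h against 1.5 h over both ions together. They come from the same arrays and share the estimate of the spread. A true difference confined to a single supplied group enters the change and also all 3 of these comparisons. Choice by a large change can therefore favour calls in them, and the counts of called genes are not read against the shares of all probe sets. Calls are limma's adjusted p (Benjamini-Hochberg over all probe sets) below 0.05.

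The supplied roots differed from the roots before supply for 3 of the 4 genes, all higher, where 18.8% of all probe sets were called in either direction and 7.72% higher. AT1G49500 averaged 8.21 log2 in supplied roots and 5.51 log2 in roots before supply, a rise of 2.69 ± 0.10 log2 (limma, adjusted p = 3.29e-11), with all 12 supplied samples above all 3 others, as in 2.72% of all probe sets. AT3G28510 averaged 5.86 log2 in supplied roots and 4.31 log2 before supply, a fitted difference of 1.55 ± 0.26 log2 (limma, adjusted p = 0.000506), again with all 12 supplied samples above. Because the level before supply was not shown to be above background, that difference is between values as measured and is not read as the size of a rise. AR781 averaged 6.55 log2 in supplied roots and 5.92 log2 before supply, a rise of the average of 0.63 ± 0.20 log2 (limma, adjusted p = 0.0394) with overlap of the samples. It came mainly from ammonium at 1.5 h, 1.99 log2 above the roots before supply. Nitrate at 1.5 h was at −0.29, nitrate at 8 h at 0.53 and ammonium at 8 h at 0.29 log2. The call of AR781 was lost without any 1 of 9 of the 15 samples (adjusted p up to 0.161, without replicate 2 of the roots before supply). It was also lost with limma's trend and robust options together (adjusted p = 0.0746). AT5G38910 was not called, at 8.29 log2 in supplied roots and 8.88 log2 before supply (−0.59 log2, 95% confidence interval −1.20 to 0.02, limma, adjusted p = 0.189).

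Averaged over both times, the ions differed for 3 of the 4 genes, 1 higher and 2 lower with nitrate, against 14.4% of all probe sets (7.54% higher and 6.88% lower). AT5G38910 averaged 7.15 log2 with nitrate and 9.44 log2 with ammonium, a fall of −2.29 ± 0.26 log2 (limma, adjusted p = 8.63e-06). That average came mainly from 8 h (−3.91 log2, against −0.67 log2 at 1.5 h). AR781 averaged 6.04 log2 with nitrate and 7.06 log2 with ammonium, a fall of −1.02 ± 0.18 log2 (limma, adjusted p = 0.000816). Its average came from 1.5 h (−2.28 log2, against 0.24 log2 at 8 h). AT1G49500 averaged 9.07 log2 with nitrate and 7.34 log2 with ammonium, a rise of 1.73 ± 0.09 log2 (limma, adjusted p = 1.23e-09), and it was the 1 gene whose 6 nitrate samples all lay above its 6 ammonium samples, as in 2.84% of all probe sets. AT3G28510 averaged 5.87 log2 with nitrate and 5.86 log2 with ammonium, a difference of 0.01 log2 with a 95% confidence interval of −0.49 to 0.52 (limma, adjusted p = 0.985).

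Averaged over both ions, time was called for 1 of the 4 genes, higher at 8 h, against 17% of all probe sets (8.91% higher). AT1G49500 averaged 8.34 log2 at 8 h and 8.07 log2 at 1.5 h, a rise of 0.27 ± 0.09 log2 (limma, adjusted p = 0.0472). The call was lost without any 1 of 11 of the 15 samples (adjusted p up to 0.126, without nitrate replicate 3 at 1.5 h), and with samples centred on their medians (adjusted p = 0.0611), normalized again (0.0562) or with the supplied groups alone in the fit (0.0574). AR781 averaged 6.33 log2 at 8 h and 6.77 log2 at 1.5 h (−0.44 log2, interval −0.82 to −0.05, limma, adjusted p = 0.12), and without nitrate replicate 1 at 8 h it was called, at −0.63 log2 (adjusted p = 0.00296). AT3G28510 was at −0.02 log2 (interval −0.53 to 0.48) and AT5G38910 at −0.19 log2 (interval −0.73 to 0.36). For AT3G28510 both the ion average and the time average were therefore near 0, with the differences held in the single groups.

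The relatives of the 4 genes were listed by family and not by the rule that picked the 4, and the change of the ion difference was tested in them. The lists were written with earlier results of these data known. It was called in 4.5% of all probe sets (2.28% higher and 2.22% lower), with a median of 0.01 log2 over all of them. Of 31 listed germin-like genes 11 were measured, which here and below means that a probe set carried the name of that gene alone. Of these, 4 to 6 lay below the lower quartile of the array in any sample. The change was called upward in 1 and downward in 1 (list median 0.21 log2). AT3G05950 had a change of −0.95 ± 0.25 log2 (limma, adjusted p = 0.0459), in the direction of AT5G38910. Its means at 8 h were 10.22 log2 with nitrate and 11.01 log2 with ammonium, and at 1.5 h 11.05 and 10.89 log2. That call was lost without any 1 of 10 of the 15 samples (adjusted p up to 0.106), with centred samples (0.0692) and with robust estimation (0.0924). AT3G10080 went the other way, at 0.78 ± 0.14 log2 (limma, adjusted p = 0.00433), with means at 8 h of 8.69 log2 with nitrate and 7.91 log2 with ammonium. AT5G38960, a germin-like gene that starts 14.17 kb from AT5G38910, was at 0.33 ± 0.17 log2 (limma, adjusted p = 0.314) with group means of 4.09 to 4.31 log2, below the lowest lower quartile of any array (4.36 log2).

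Of 24 listed AAA-type ATPase genes of the same kind as AT3G28510, 15 were measured, 8 or 9 of them below the lower quartile in any sample, and 0 were called for the change (limma; 5 at an unadjusted p below 0.05; list median 0.11 log2). Several did differ between the ions at both times. AT4G25835 had means of 7.71 log2 with nitrate and 5.85 log2 with ammonium at 1.5 h, and 7.98 and 5.89 log2 at 8 h, which are rises with nitrate of 1.86 log2 (limma, adjusted p = 5.67e-06) and 2.09 log2 (adjusted p = 1.12e-06). AT2G46620 rose with nitrate by 0.88 and 0.70 log2. AT5G17760 fell with nitrate by 0.47 and 0.86 log2 and AT5G57480 fell by 0.45 and 0.50 log2. In this family 2 genes were higher and 3 lower with nitrate at each time (10.7% of all probe sets were called at 1.5 h, 5.61% higher and 5.08% lower, and 10.7% at 8 h, 5.4% higher and 5.28% lower). The third lower gene was not the same. At 1.5 h it was AT3G28610 (−0.24 log2, limma, adjusted p = 0.0394), with group means of 3.61 to 3.85 log2, below the lowest lower quartile of any array (4.36 log2). At 8 h it was AT1G43910 (−0.57 log2, adjusted p = 0.0264). AT4G25835, AT2G46620, AT5G17760 and AT5G57480 were also the 4 of 15 called higher in the mean of the supplied groups, by 1.98, 0.52, 0.83 and 0.95 log2, where 7.72% of all probe sets were called higher. With ammonium alone AT2G46620 was not called against the roots before supply. It was at 0.12 log2 at 1.5 h (limma, adjusted p = 0.364) and 0.14 log2 at 8 h (adjusted p = 0.267). AT3G28520 and AT3G28540, which start 2.853 and 8.705 kb from the start of AT3G28510, were at 0.09 ± 0.15 and 0.11 ± 0.13 log2 for the change. The group means of AT3G28520, 3.10 to 3.29 log2, also lay below the lowest lower quartile of any array. Hybridisation of one relative to the probe set of another was not tested.

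All 7 listed DUF1645 genes were measured, and 1 was called for the change, upward (list median −0.19 log2), against 2.28% of all probe sets. AT1G23710 had means of 7.92 log2 with nitrate and 8.44 log2 with ammonium at 1.5 h, and of 8.19 and 7.99 log2 at 8 h. Its change of 0.71 ± 0.12 log2 (limma, adjusted p = 0.00258) had the direction of AR781, and its early difference of −0.52 log2 was called (adjusted p = 0.000586) while the late one of 0.19 log2 was not (adjusted p = 0.185). At 1.5 h, 1 of the 7 was called higher and 2 lower with nitrate, against 5.61% and 5.08% of all probe sets. AT3G27880 was the other lower one, at −0.37 log2 (limma, adjusted p = 0.0081), and it was lower at 8 h too, at −0.56 log2 (adjusted p = 0.000222). The higher one, AT1G70420, was at 0.85 log2 (limma, adjusted p = 6.91e-05).

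AT3G19030, listed as the relative of AT1G49500, had means of 9.54 log2 before supply, 10.98 log2 with nitrate and 10.79 log2 with ammonium at 1.5 h, and 11.01 and 10.30 log2 at 8 h. Its change was 0.53 ± 0.10 log2 (limma, adjusted p = 0.00712), and it too parted late, by 0.71 log2 (adjusted p = 4.68e-06), and was not called early (0.18 log2, adjusted p = 0.139).

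**Figure D3:**
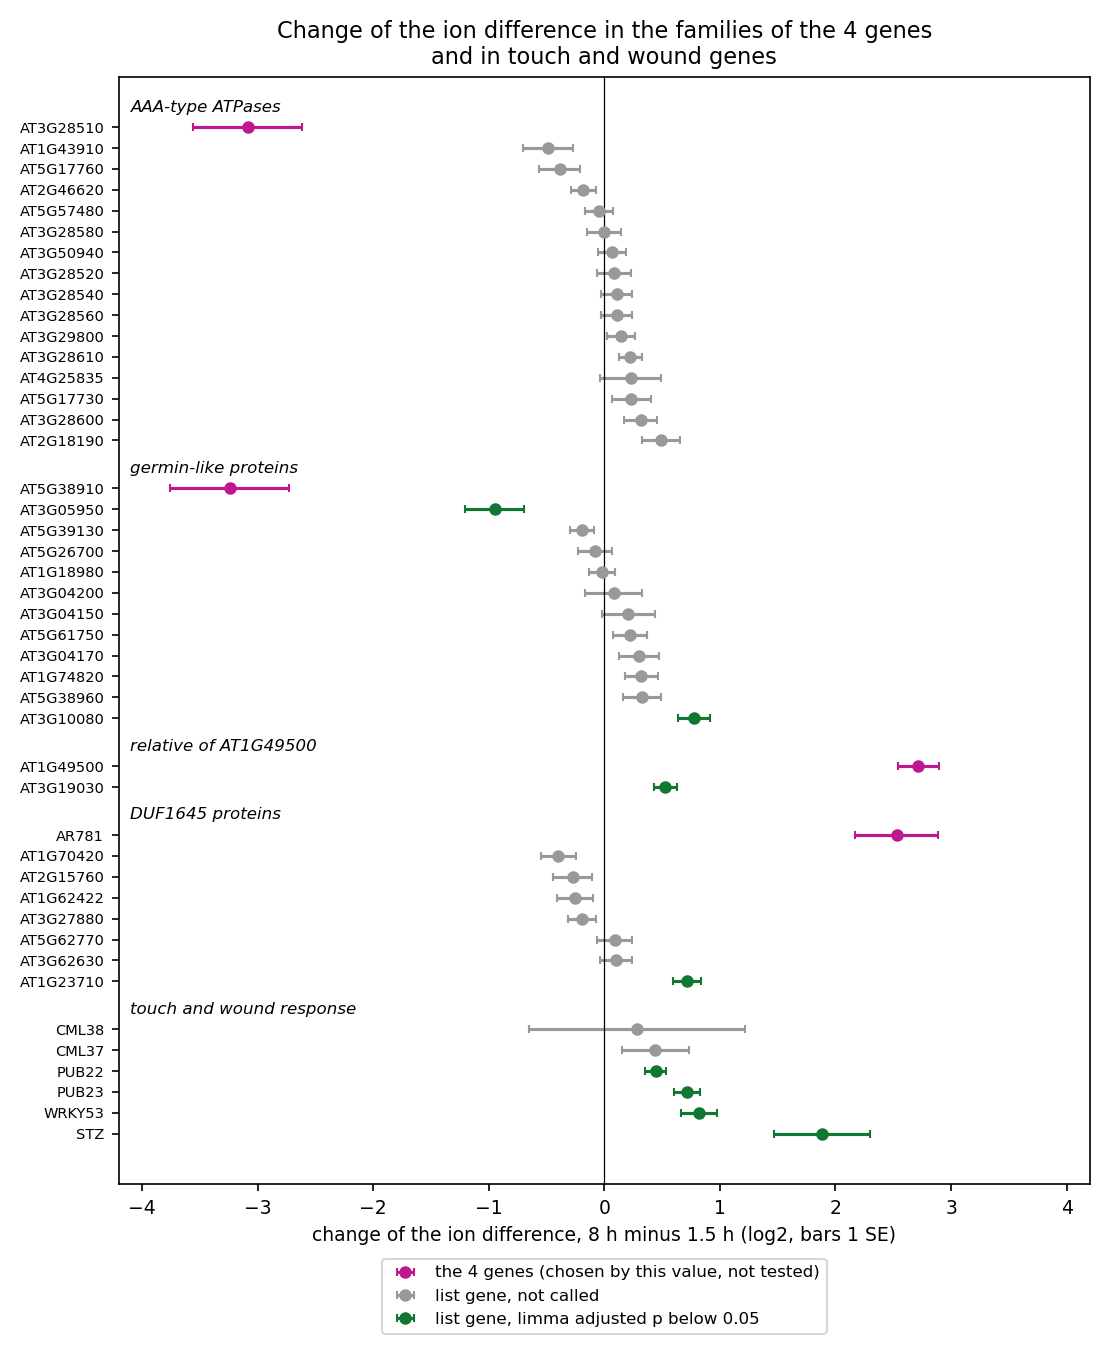
Change of the ion difference (nitrate minus ammonium at 8 h minus the same at 1.5 h, log2, bars 1 SE) for the 4 genes, the measured members of their families and the touch and wound genes, in rows. The 4 genes lie between −3.24 and 2.72, and the family members between −0.95 and 0.78. Of the 6 touch and wound genes 4 were called, all to the right, against 2.28% of all probe sets.

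Genes that respond to nitrate and genes that respond to touch and wounding were set beside the 4. Of 31 listed nitrate response genes 9 were measured, and the change was called upward in 4 and downward in 0 of these (limma, list median 0.14 log2). Among all probe sets 2.28% were called upward and 2.22% downward. NIA1, NIA2, NIR1 and NRT2:1 were among the listed genes without a named probe set, so the counts describe a part of the list. AT1G80380, the glycerate kinase gene, had a change of 1.18 ± 0.16 log2 (limma, adjusted p = 0.00065). AT5G10210 was at 1.57 ± 0.28 log2 (adjusted p = 0.0039), and AT1G25550 (HHO3, a GARP-type regulator) at 0.86 ± 0.16 log2 (adjusted p = 0.00684). The fourth, AT1G68670 (HHO2, 0.58 ± 0.15 log2, adjusted p = 0.034), is named after its value was seen, and its call was lost without any 1 of 9 samples (adjusted p up to 0.0831). AT1G25550 resembled AT1G49500 in having a small early difference between nitrate and ammonium (−0.05 log2, adjusted p = 0.851) and a late one of 0.81 log2 (adjusted p = 0.000176).

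Of 32 listed touch and wound genes 6 were measured. The change was called upward in 4 and downward in 0 (list median 0.58 log2), against 2.28% and 2.22% of all probe sets. The early difference was called lower with nitrate in 4, against 5.08% of all probe sets. PUB23 and PUB22, which encode ubiquitin ligases, had changes of 0.71 ± 0.11 log2 (limma, adjusted p = 0.00181) and 0.45 ± 0.09 log2 (adjusted p = 0.0101). WRKY53, a transcription factor gene of stress responses, was at 0.82 ± 0.15 log2 (adjusted p = 0.00594). The zinc finger gene STZ, named after its value was seen, was at 1.88 ± 0.42 log2 (adjusted p = 0.0161, and 0.0557 with robust estimation). All 4 shared with AR781 a level at 1.5 h that was lower with nitrate than with ammonium.

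The mean level of these 6 genes shared with AR781 a peak at 1.5 h of ammonium. In this mean the other groups did not come in the same order as in AR781. It was lowest before supply, where STZ (6.83 log2) and CML38 (5.40 log2) had their lowest group means. WRKY53 (7.02 log2), PUB22 (8.93 log2), PUB23 (7.81 log2) and CML37 (3.44 log2) were lowest at 1.5 h of nitrate. AR781 was lowest there too (5.63 log2, overlapping the roots before supply). Relative to its average over all samples, the mean level of the 6 genes was −0.41 to 0.19 log2 at 1.5 h of nitrate and 0.55 to 0.85 log2 at 1.5 h of ammonium. At 8 h it was −0.43 to 0.39 log2 with nitrate and −0.20 to 0.21 log2 with ammonium, against −0.60 to −0.40 log2 before supply. CML37, a calmodulin-like gene, lay below the lower quartile in all 15 samples. The mean of 17 measured core hypoxia genes was −0.90 to 0.81 log2 at 1.5 h of nitrate, 0.13 to 0.97 log2 at 1.5 h of ammonium, −0.99 to 0.37 log2 at 8 h of nitrate, −0.08 to 1.03 log2 at 8 h of ammonium and −1.15 to −0.81 log2 before supply. Of these 17, 0 were called for the change (limma; 1 at an unadjusted p below 0.05), and 2 at 1.5 h and 3 at 8 h were called lower with nitrate, against 5.08% and 5.28% of all probe sets. The part of handling or oxygen supply in the results for the 4 genes was not tested.

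Samples of 1 group differed widely in 3 of the 4 genes. The residual SD was 0.54 log2 for AT5G38910, 0.50 log2 for AT3G28510 and 0.38 log2 for AR781, above 99.7%, 99.6% and 99.1% of all probe sets, whose median was 0.11 log2. For AT1G49500 it was 0.17 log2, above 85.4%. The 3 variable genes deviated from their group means together. In 5 samples all 3 lay above and in 5 all 3 lay below, with the other 5 mixed. Over the 15 samples these deviations correlated at r = 0.77 between AT3G28510 and AT5G38910, 0.62 between AT3G28510 and AR781, and 0.65 between AT5G38910 and AR781. An r as high as that of AT3G28510 and AT5G38910 was reached by 0.281% of all probe sets with AT3G28510 and by 0.664% with AT5G38910. For the pairs with AR781 the shares were 1.86% to 3.06%. With AT1G49500 the correlations were −0.13, −0.11 and 0.09. The points share arrays and normalization, and the group means take up part of their freedom.

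The deviations of AR781 followed those of the touch and wound genes (r = 0.93 over 15 samples) and of the hypoxia genes (0.81). These list means were not scaled by gene. Among the 6 touch and wound genes CML38 varied most within groups (SD 0.63 to 1.44 log2). Its change was not called (0.29 log2, limma, adjusted p = 0.911). How many of all probe sets reach such an r with these lists was not examined. The values with the touch and wound genes were 0.59 for AT3G28510, 0.56 for AT5G38910 and 0.00 for AT1G49500, and with the hypoxia genes 0.39, 0.39 and 0.41 for the same genes. Nitrate replicate 1 at 8 h, in which AR781 lay 0.77 log2 above its group, had the highest touch and wound level (0.39 log2) and the highest hypoxia level (0.37 log2) of its group. Nitrate replicate 2 at 1.5 h was high for AT3G28510 (0.78 log2), AT5G38910 (0.74 log2) and AR781 (0.43 log2), and it too had the highest touch and wound level (0.19 log2) and hypoxia level (0.81 log2) of its group. Other samples went differently. Replicate 3 of the roots before supply had all 3 genes above their group means, with the lowest touch and wound (−0.60 log2) and hypoxia (−1.15 log2) levels of its group. Ammonium replicate 3 at 8 h had all 3 genes below, with the highest hypoxia level (1.03 log2) of its group. The order of the ions at 1.5 h in AT3G28510 did not rest on nitrate replicate 2. The other nitrate samples, 6.64 and 5.90 log2, also lay above the ammonium samples.

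**Figure D4:**
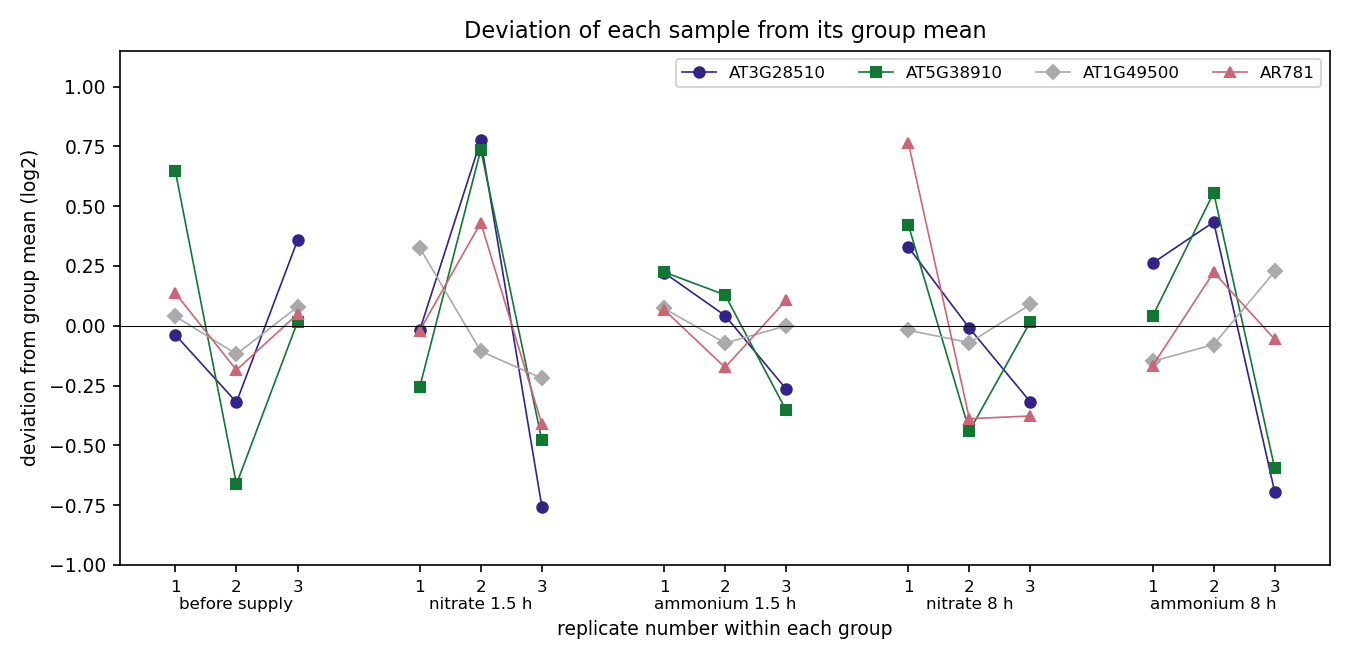
Deviation of each of the 15 samples from the mean of its group (log2, y axis) for the 4 genes, by group and replicate number (x axis). AT3G28510, AT5G38910 and AR781 are all above their means in 5 samples and all below in 5, while AT1G49500 stays within 0.33 log2 of its means.

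For each gene, the 3 named genes with the most similar values over the 15 samples (Pearson's r) and the most opposed one were taken. Likeness to genes chosen for their change carries that choice over, so these are descriptions. AT1G49500 had the closest partners, AT4G05070 (r = 0.98), AT1G73920 (0.96), which encodes a lipase-like hydrolase, and AT4G39670 (0.95), which encodes a glycolipid transfer protein. Their late ion differences were 1.17, 1.05 and 1.26 log2, smaller than the 3.09 log2 of AT1G49500. The most opposed gene was AT4G33040 (r = −0.98), a CC-type glutaredoxin gene, at 5.97 log2 with nitrate and 7.67 log2 with ammonium at 8 h.

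AR781 was followed by AT2G25735 (r = 0.97), by AT2G23680 (0.94), which encodes a protein of the cold acclimation type WCOR413, and by AT2G22880 (0.93), which encodes a VQ motif protein. Their early differences were −1.24, −0.75 and −1.48 log2, and all 3 had their highest group mean at 1.5 h of ammonium. AT1G36730, a translation initiation factor gene, was opposed (r = −0.93). For AT5G38910 the closest were ATL5 (r = 0.93), a RING finger gene, AT2G38600 (0.92), an acid phosphatase-like gene, and AT2G48030 (0.91), with AT2G16900 opposed (−0.90). Their late differences were −0.77, −1.41 and −0.40 log2.

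AT3G28510 had the least close partners. They were AT1G61480 (r = 0.89), a receptor-like kinase gene, AT5G18840 (0.83), a sugar transporter gene of the ERD6-like kind, and AT1G16310 (0.82), a cation efflux gene, with AT1G51540 opposed (−0.89). Each of these 3 partners had a positive early and a negative late difference, of 0.22 and −0.58, 0.27 and −1.23, and 0.33 and −0.14 log2.

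**Figure D5:**
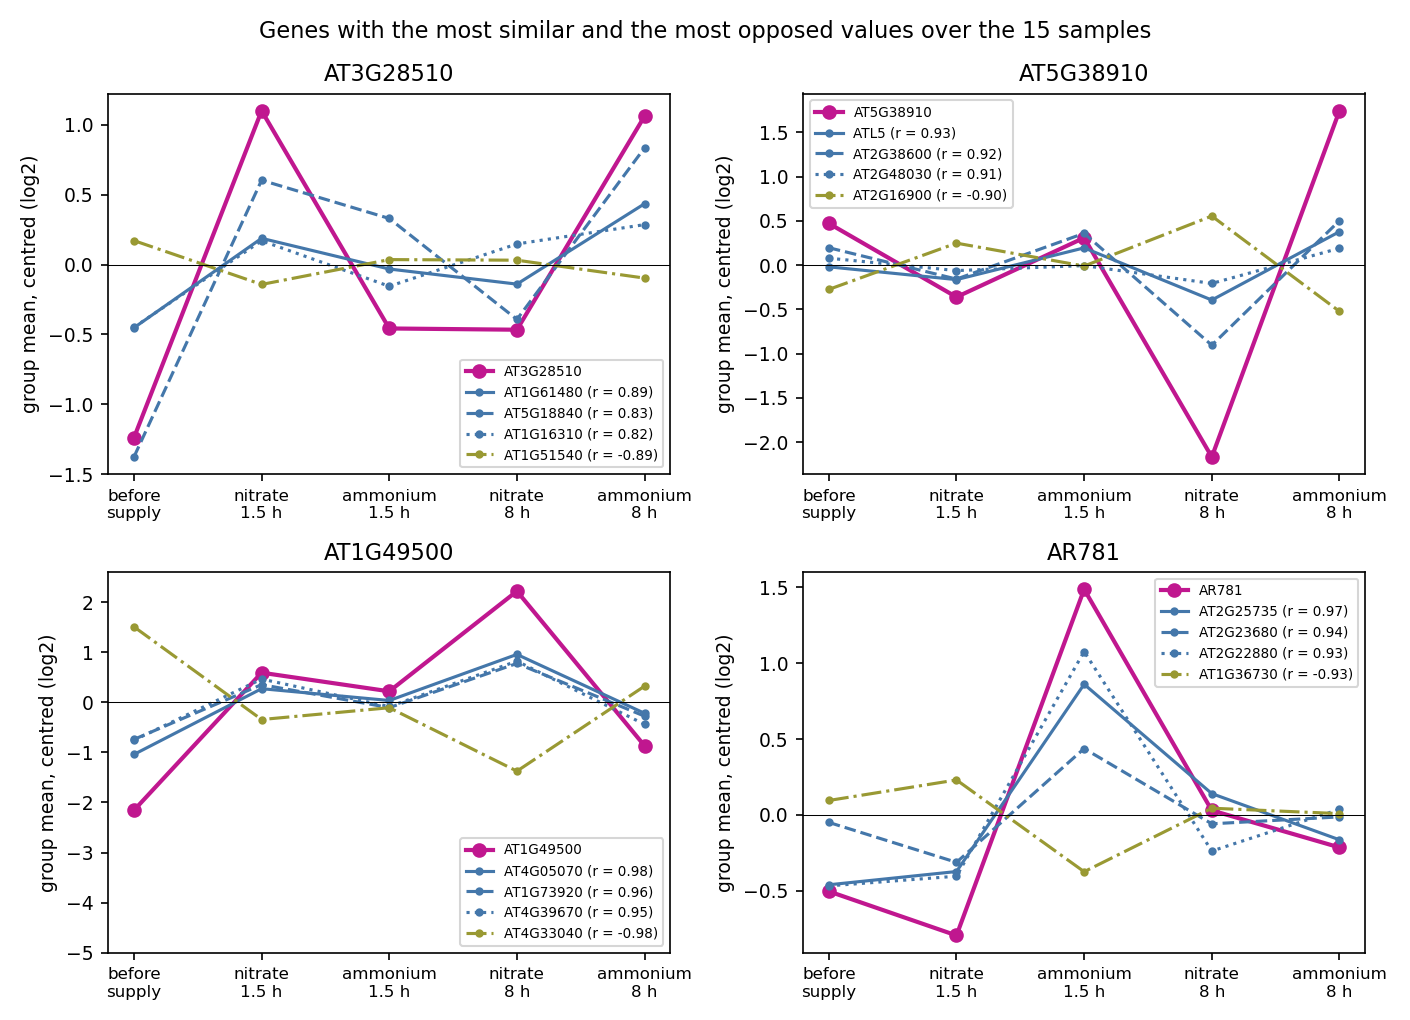
Group means centred on their own average (log2, y axis) over the 5 groups (x axis) for each of the 4 genes (purple), the 3 genes with the highest correlation over the 15 samples (blue) and the gene with the lowest (olive). The similar genes have r from 0.82 to 0.98, and most take smaller steps; AT5G18840, beside AT3G28510, is 1.72 log2 higher in supplied roots than before supply, against 1.55 log2 for AT3G28510.

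Genes next to the 4 on their chromosomes were examined for the change of the ion difference. Among 10 neighbouring protein-coding genes of each, 9 were measured around AT3G28510, 5 around AT5G38910, 5 around AT1G49500 and 4 around AR781. The change was called in 1, 0, 0 and 0 of them (limma), or 1 of 23 (4.35%), close to the 4.5% of all probe sets. The called neighbour was AT3G28530, which starts 5.167 kb from AT3G28510. RefSeq gives it a length of 78 bases. It had a change of −0.84 ± 0.15 log2 (limma, adjusted p = 0.00418), in the direction of AT3G28510.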

How the data were processed

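Gene expression was measured in 15 root samples on 1-colour arrays. The deposited values were RMA levels per probe set on a log2 scale; the authors used RMA and limma per the submitters' processing notes, with no version or design stated, and values of 2.45 to 13.96 fit a log2 scale. No scanner files were used here. All 22746 probe sets were kept unfiltered; 13513 had 1 listed gene, 503 several and 8730 none. Symbols came from RefSeq genes (TAIR10.1), matched for 13436 probe sets. Where probe sets shared a gene, the brightest on average was used.

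Group means were fitted with limma 3.58.1 in R 4.3.3 (10 residual and 5.11 prior degrees of freedom), two-sided, with Benjamini-Hochberg adjustment over all probe sets and a threshold of 0.05. The 4 genes and all lists were chosen with earlier results of these data known. Of 208 listed loci 70 had a named probe set, and 0 of the 16 salicylate defence genes did. The other loci were not shown to be absent from the array, since probe sets with no listed gene or several were not searched for them. Named were the 4 genes, the 3 most correlated genes and the 1 most opposed for each, called family members, and in other lists the 3 called genes with the smallest adjusted p. Neighbouring genes were added after the files were read. The fit was tested on simulated data. Figures used Python 3.11.15. No sequences were used here. Alternatives tried were quantile normalization once more, medians centred, a variance trend with robust estimation, array weights, a filter on low values (above the lower quartile in at least 3 samples), the replicate number as a block, the supplied groups alone, and leaving out each sample in turn; all were also applied, after the data were seen, to the ion difference at each time.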

Additional observations from a re-analysis of the deposited data

Results flagged for a closer look

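The difference between the ions was not the same at 8 h as at 1.5 h for the genes listed here. AT3G28510 changed by −3.09 log2, with every nitrate sample above every ammonium sample early and below late; this difference was not tested, because it chose the gene. The others passed limma's test of the change itself (adjusted p below 0.05). They were −0.95 log2 for AT3G05950, −0.84 log2 for AT3G28530, 0.78 log2 for AT3G10080, 0.71 log2 for AT1G23710, 0.53 log2 for AT3G19030, 0.82 log2 for WRKY53, 0.45 log2 for PUB22, 0.71 log2 for PUB23, 1.88 log2 for STZ, 1.18 log2 for AT1G80380, 1.57 log2 for AT5G10210, 0.86 log2 for AT1G25550 and 0.58 log2 for AT1G68670. The calls of AT3G05950 and AT1G68670 were each lost when single samples were left out. With a variance trend and robust estimation the calls of STZ (limma, adjusted p = 0.0557) and AT3G05950 (0.0924) were lost. That of AT3G05950 was also lost with samples centred on their medians (0.0692). No test for outlying samples was run within the groups of 3, although each sample was left out in turn and array weights were tried.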

How the results depend on the processing

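With array weights, which gave the 3 samples before supply weights of 0.252, 0.628 and 7.64, probe sets called for supply were 8843 in place of 4272 and for the change of the ion difference 1607 in place of 1023. AT5G38910 then passed for supply (−0.61 log2), and the near-zero averages of AT3G28510 turned sign (−0.086 log2 between ions and 0.010 log2 with time). After centring on medians 64% of the calls for the change were upward in place of 50.7%. The call of AR781 for supply was lost with a variance trend and robust estimation (0.63 log2). That of AT1G49500 for time was lost after a second quantile normalization (0.26 log2), centring (0.26 log2) and with the supplied groups alone (0.27 log2). Leaving out 1 sample at a time gave AR781 0.54 to 0.70 log2 for supply, −0.63 to −0.33 log2 for time and 2.15 to 2.74 log2 for the change, AT3G28510 −0.18 to 0.20 log2 between ions and −0.21 to 0.17 log2 with time, and AT1G49500 0.21 to 0.35 log2 with time. The causes were not tested. Same-numbered samples did not deviate together throughout (r from −0.16 to 0.37), and the numbers were not taken as pairs in the main fit. An r over 0.1 was found in 8 of 10 pairs of replicate 1 and in 3 of 10 pairs each of replicates 2 and 3. Whether the samples of replicate 1 shared an effect was not tested. With the replicate block 4634, 3567, 4205 and 1180 probe sets were called for supply, ion, time and change, in place of 4272, 3282, 3869 and 1023, and no call of the 4 genes changed; 8 of 15 samples matched best with their own number.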
